A study of Homo sapiens with 24 samples.

Results

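The response to IFNγ was described in SW-13 cells in which SUZ12 and BRM were knocked down together. The members were chosen by their labels: 6 of the 24 arrays came from cells that received siSUZ12 and siBRM, 3 of them untreated and 3 exposed to IFNγ for 6 hours. SW-13, a line from a human adrenocortical carcinoma, lacks BRG1. The other 18 arrays came from cells given siCtrl, siSUZ12, or siCtrl and siBRM, each background again with 3 untreated and 3 IFNγ arrays. Cells received 50 nM siCtrl or siSUZ12, and those with siBRM a further 75 nM of that siRNA. Loss of BRM and the larger siRNA load therefore cannot be told apart in comparisons of backgrounds with and without siBRM, whereas siCtrl + siBRM and siSUZ12 + siBRM cells received equal totals. The Methods call the 3 arrays of a group biological replicates; all came from 1 cell line.

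IFNγ binds its receptor at the cell surface and turns on interferon-stimulated genes (ISGs), among them genes of antigen presentation and of antiviral defence. SUZ12 is a core subunit of PRC2, the Polycomb complex that places the repressive H3K27me3 mark on chromatin. BRM and BRG1 are the alternative ATPases of the SWI/SNF chromatin remodelling complex, so that siBRM in a line without BRG1 is aimed at the remaining one. The double knockdown asked whether a change in BRM after depletion of PRC2 could account for the induction of ISGs.

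Signal intensities of 47231 Illumina probes were read on each array, and a probe's intensity measures its mRNA relative to other arrays. Across the 6 arrays the mean signal was 538.6 to 609.1 and 16069 to 16339 probes were detected (detection p-value below 0.01). Log2 signals correlated at 0.994 to 0.995 between replicate arrays and at 0.990 to 0.991 between untreated and IFNγ arrays. The closest partner of every one of the 24 arrays was from its own group. The deposited table lists probes without gene names, and 0 of its probe IDs stood in the gene tables used here, so results are given for probes, several of which can belong to 1 gene. For that reason the levels of SUZ12 and BRM, markers of the cell line and lists of ISGs were not analysed here. Arrays were brought to a common mean signal and tested on the log2 scale with limma over all 24 arrays. Probes that changed ≥ 2-fold and had a Benjamini-Hochberg adjusted p below 0.05 were called.

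IFNγ raised 140 probes ≥ 2-fold in siSUZ12 + siBRM cells, which was 0.296% of the 47231 probes, and lowered 0 (limma). With background subtracted by neqc, 223 were raised and 13 lowered ≥ 2-fold, and 139 of the 140 were among the raised. At an adjusted p below 0.05 without a limit on the fold, 679 probes (1.44%) were higher and 432 (0.915%) were lower. At an unadjusted p below 0.05 the numbers were 1911 and 2801. The median change over all probes was -0.02 on the log2 scale. The response was thus lopsided in size, with every called change an increase on these signals. At an adjusted p below 0.05, 61.1% of the changed probes were higher, and 50.6% to 77.5% over the other settings run. Whether small changes lean in a direction was not tested. The 140 probes rose by up to 5.25 on the log2 scale, with a median of 1.49 (2.81-fold). A rise of at least 4-fold was reached by 38 probes, one of 8-fold by 12, one of 16-fold by 3 and one of 32-fold by 1. The weakest called probe had a log2 change of 1.0021 and the strongest probe just outside one of 0.9981. All 140 had their 3 IFNγ arrays above their 3 untreated arrays, as did 5.54% of all probes, and their highest adjusted p was 1.93e-08. A further 539 probes rose at an adjusted p below 0.05 by less than 2-fold, with a median log2 change of 0.44, and 135 of these reached 1.5-fold.

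**Figure D1:**
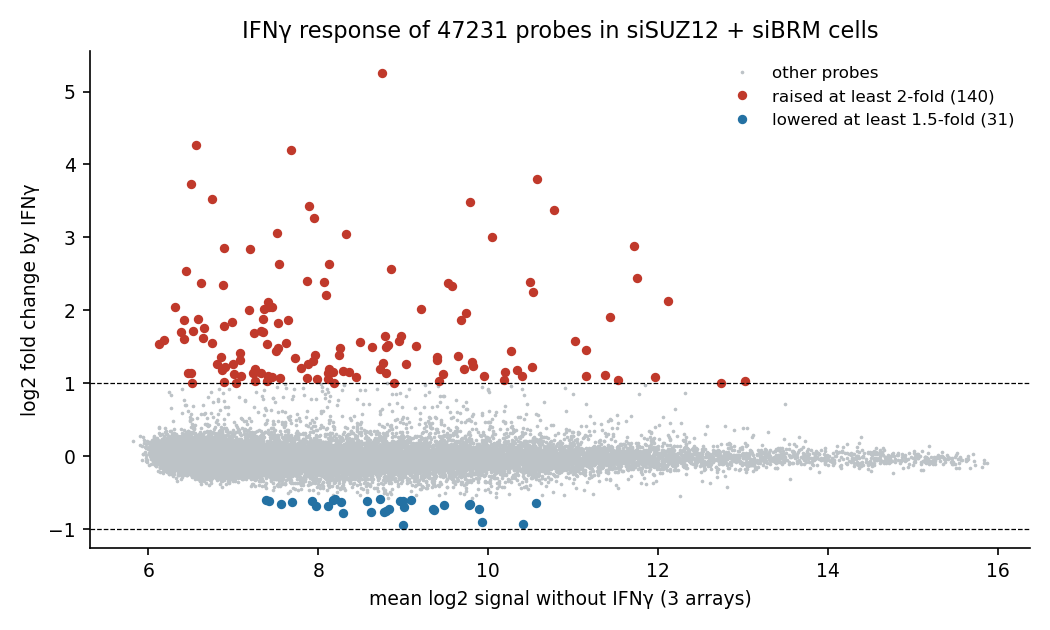
Each point is 1 of 47231 probes, with its mean log2 signal in untreated siSUZ12 + siBRM cells (3 arrays) on the horizontal axis and its log2 fold change by IFNγ on the vertical axis; dashed lines mark a 2-fold change. The 140 raised probes reach a log2 change of 5.25, while the deepest of the 31 lowered probes lies at -0.95, above the lower line.

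The share of the total signal held by the raised probes shows the size of the response in each array; that it was larger after IFNγ follows from how they were chosen. In untreated siSUZ12 + siBRM cells they held 0.353%, 0.344% and 0.335% of the signal of an array. After IFNγ the shares were 1.32%, 1.31% and 1.30%. Measured against the mean of the untreated arrays, the median log2 change of the 140 probes was 1.48, 1.46 and 1.44 in the 3 IFNγ arrays, so the response was of like size in each replicate. After IFNγ, the same probes held 1.17% to 1.21% of the signal in siSUZ12 cells, 0.956% to 0.974% in siCtrl + siBRM cells and 0.794% to 0.811% in siCtrl cells. The probes were chosen on the siSUZ12 + siBRM arrays, which favours that background in this order.

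On signals without background subtraction, the strongest rise was that of ILMN_1708375, the 1 probe raised over 32-fold on that scale. Its signal was 409.3, 447.4 and 432.4 in the untreated arrays and 16690, 16820 and 15500 after IFNγ. The groups were far apart, with a log2 change of 5.25 (SE 0.08, n = 3 per group; limma adjusted p = 1.24e-32). The probe rose strongly in every background, with log2 changes of 5.26 in siSUZ12, 5.09 in siCtrl + siBRM and 4.87 in siCtrl cells. The difference from siSUZ12 cells was -0.02 (95% CI -0.24 to 0.21) and the difference from siCtrl cells 0.38 (95% CI 0.16 to 0.60, limma adjusted p = 0.299).

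The next strongest on that scale, ILMN_3239965, differed by background. Its signal was 89.4, 96.6 and 97.5 in untreated siSUZ12 + siBRM cells, where no array detected it, and 2099, 1792 and 1585 after IFNγ (log2 change 4.26, SE 0.09; limma adjusted p = 8.97e-28). Since the untreated signal was at background, the size depends on its subtraction: with neqc the log2 change was 5.98, above the 5.56 of ILMN_1708375, and the order of these probes turned. In siSUZ12 cells it went from 89.6, 102.5 and 109.1 to 2439, 2382 and 2592. In siCtrl + siBRM cells it was 92.3, 90.0 and 88.4 without and 95.6, 96.7 and 85.1 with IFNγ, and no array of either control background detected it. Both backgrounds with siSUZ12 thus turned from undetected to bright, and both without it stayed at the level of undetected probes. The response was larger by 4.23 (limma adjusted p = 3.55e-22) than in siCtrl + siBRM cells and by 4.28 (2.47e-22) than in siCtrl cells. Against siSUZ12 cells it was lower by a log2 difference of -0.36 (95% CI -0.62 to -0.10), which did not pass adjustment over all probes (limma adjusted p = 1).

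**Figure D2:**
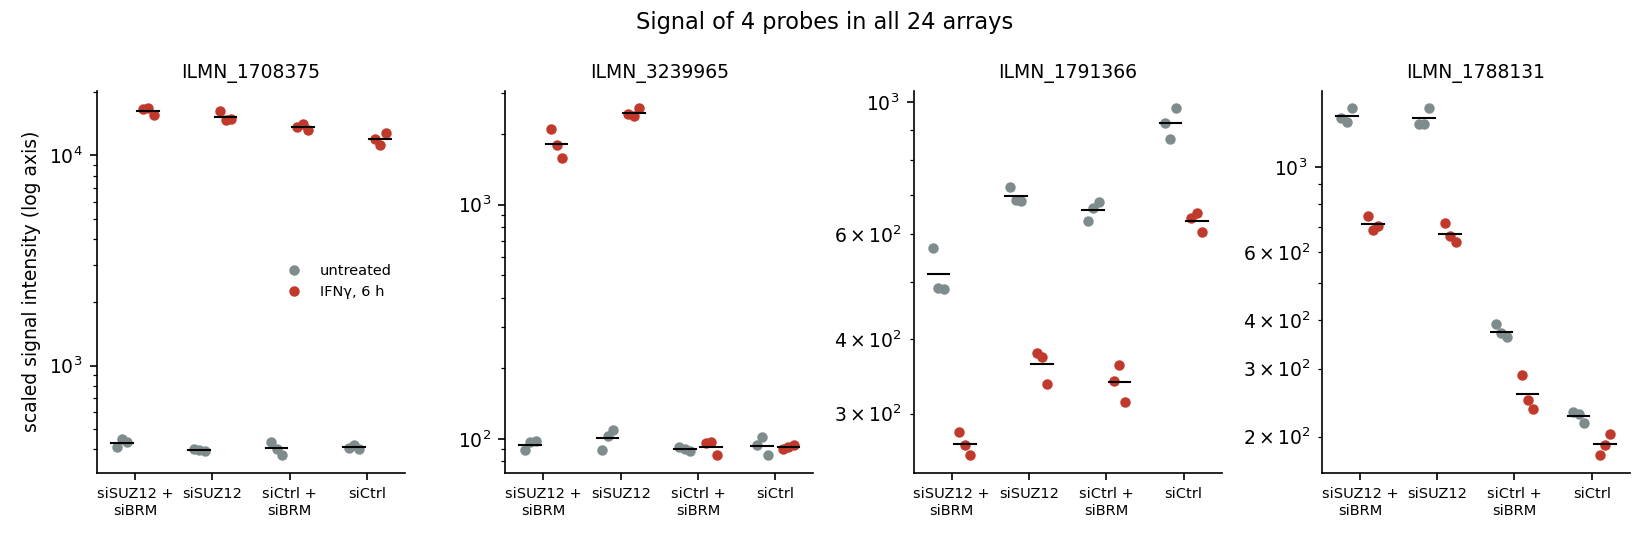
Scaled signal intensity (log axis) of the 2 probes with the largest rises and the 2 with the largest falls in siSUZ12 + siBRM cells, shown for all 24 arrays; points are arrays, grey without and red with IFNγ, and lines are means of 3. ILMN_1708375 rises in all 4 backgrounds, whereas ILMN_3239965 rises in the 2 backgrounds with siSUZ12 and stays between 84.9 and 101.6 in the others.

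The first question of the design was how the response with both knockdowns compares with that of siSUZ12 alone. siSUZ12 cells raised 130 probes ≥ 2-fold (0.275% of all probes). These sets shared 116 probes, which was 82.9% of the probes raised in siSUZ12 + siBRM and 89.2% of those raised in siSUZ12 cells. The 24 raised in siSUZ12 + siBRM but not called in siSUZ12 cells were all higher at an adjusted p below 0.05 there too, as were all 140, against 1.2% of all probes. Over the 130 probes, which were chosen on arrays of siSUZ12 cells and not on those of the double knockdown, the median log2 change was 1.54 in siSUZ12 + siBRM and 1.52 in siSUZ12 cells. Probe by probe, the median log2 difference was -0.045, with 58 probes larger in siSUZ12 + siBRM and 72 larger in siSUZ12 cells. The choice of the 130 favours siSUZ12 cells. All 130 were raised in siSUZ12 + siBRM cells at an adjusted p below 0.05, against 1.44% of all probes.

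Tested probe by probe, the response of siSUZ12 + siBRM cells was higher than that of siSUZ12 cells at 5 of the 47231 probes (0.0106%) and lower at 8 (0.0169%). Of the 130 probes, 1 was higher and 6 were lower, and of the 140, 2 were higher and 4 were lower. For 97 of the 130 probes the 95% confidence interval of the difference lay within 1.5-fold in either direction, and for 5 it reached past 2-fold. Over all 47231 probes it lay within 1.5-fold for 45964 and within 2-fold for 47219, so the 130 were within 1.5-fold less often than the whole array. The total of 13 differing probes fell to 4 when the fit held the arrays of these backgrounds alone and to 1 without replicate 2 of every group. Smaller differences were not resolved: the median half-width of the interval was 0.24 on the log2 scale over the 140 probes.

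Of the 6 raised probes that differed between the backgrounds with siSUZ12, 5 were undetected before IFNγ, and 4 of these had a smaller rise with siBRM added. Their folds, taken over undetected signals, depend on the background. The 52nd strongest probe had a signal of 87.6, 81.2 and 82.0 in untreated and 272.9, 281.8 and 262.5 in IFNγ arrays of siSUZ12 + siBRM cells. In siSUZ12 cells it reached 686.4, 669.5 and 691.3 from 97.5, 86.0 and 90.4. Its log2 change was thus 1.71 against 2.90, a difference of -1.20 (limma adjusted p = 5.31e-07). The 34th probe rose from 78.0, 80.0 and 80.8 to 314.8, 301.5 and 375.5 in siSUZ12 + siBRM cells, and to 570.4, 684.6 and 657.9 in siSUZ12 cells (difference -0.94, limma adjusted p = 2.44e-04). The 81st probe differed by -0.92 (0.00149) and the 110th by -0.63 (0.0303). These 4 were the undetected probes with a smaller rise. In the other direction, the 44th probe rose to 305.0, 327.1 and 307.4 in siSUZ12 + siBRM and to 224.5, 201.9 and 209.2 in siSUZ12 cells (difference 0.69, limma adjusted p = 0.00763). The 89th probe was higher by 0.62 (0.0408).

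The second comparison held siBRM and the siRNA dose constant and varied SUZ12. siCtrl + siBRM cells raised 75 probes ≥ 2-fold (0.159%), of which siSUZ12 + siBRM cells raised 73, or 97.3%. These 73 made up 52.1% of the 140. The response was higher in siSUZ12 + siBRM than in siCtrl + siBRM cells at 46 of all probes (0.0974%) and lower at 9 (0.0191%). Of the 140 raised probes, 34 were higher and 2 were lower, with a median log2 change of 1.49 against 1.03. The 140 were chosen on siSUZ12 + siBRM arrays and the 75 on siCtrl + siBRM arrays, so each choice favours its own background. For the 75, the median log2 change was 1.72 with siSUZ12 and 1.56 without. Of these, 7 were higher and 2 lower at an adjusted p below 0.05. Of the 140, 18 had a response at least 2-fold larger in siSUZ12 + siBRM cells; the choice of the 140 favours such gaps, and of the 75 there were 0. Without replicate 2 of every group the 34 higher probes became 21.

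Against siCtrl cells both siRNAs differed. siCtrl cells raised 58 probes (0.123%), and all 58 were raised in siSUZ12 + siBRM cells, where they were 41.4% of the 140. The response was higher in the double knockdown at 102 of all probes (0.216%) and lower at 6 (0.0127%). Of the 140, 74 were higher and 1 was lower, with medians of 1.49 and 0.85, and the 74 became 41 without replicate 2 of every group and 46 without replicate 3. Of the 58 chosen on siCtrl arrays, 20 were higher and 1 was lower, with median log2 changes of 1.96 and 1.57. The responses of the 4 backgrounds share no arrays, but the 3 differences all use the same 6 siSUZ12 + siBRM arrays, so they are not independent of each other.

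**Figure D3:**
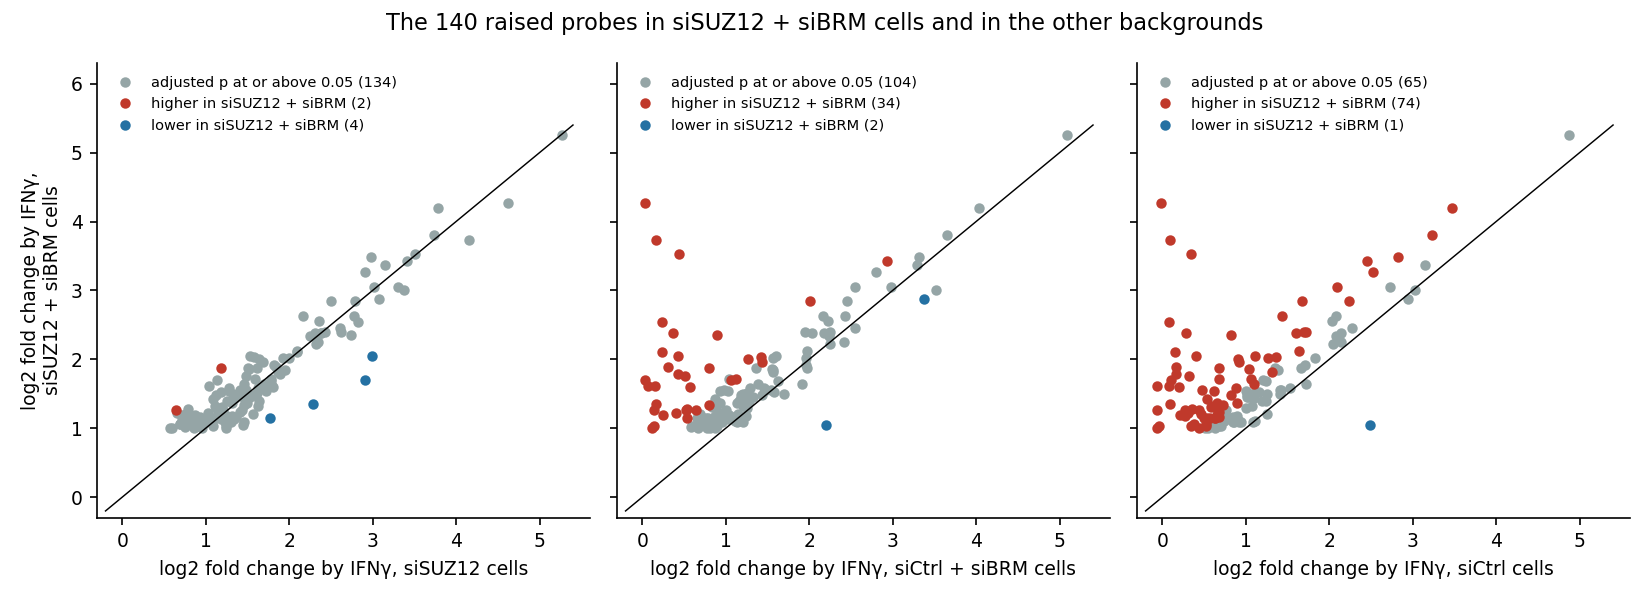
Log2 fold change by IFNγ of the 140 raised probes in siSUZ12 + siBRM cells (vertical axis) against siSUZ12, siCtrl + siBRM and siCtrl cells (horizontal axes); the line marks equal responses and colours mark probes whose responses differ at an adjusted p below 0.05. Points lie along the line against siSUZ12 cells, with 6 coloured, and 36 and 75 are coloured against the other backgrounds.

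By the backgrounds in which they were called, the 140 probes fell into 5 classes. The class called in all 4 backgrounds held 58 probes and had the largest responses, with medians of 1.96 in siSUZ12 + siBRM, 1.89 in siSUZ12, 1.93 in siCtrl + siBRM and 1.57 in siCtrl cells. A class of 14 was called in all but siCtrl cells and 1 probe in the backgrounds with siBRM. The 44 probes (31.4%) called in the backgrounds with siSUZ12 and in no other had medians of 1.33 and 1.32 there, 0.71 in siCtrl + siBRM and 0.53 in siCtrl cells. Of these 44, 21 had a higher response than in siCtrl + siBRM cells by the test of the difference, and 11 were detected by no IFNγ array of that background. Since the classes were made from these responses, their lower medians where they were not called follow from the choice, and these counts are a description. The last 23 (16.4%) were called in siSUZ12 + siBRM cells alone, with a median of 1.08, close to the threshold, and 0.80 in siSUZ12 cells. The response of 1 of these 23 was higher than in siSUZ12 cells by the test, so this class is mostly one of probes near the 2-fold limit. Conversely, 16 probes were called in another background and not in the double knockdown.

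The probes also differed in whether they were expressed before IFNγ. Of the 140, 106 were detected by all 3 untreated siSUZ12 + siBRM arrays, 8 by 1 or 2 of them and 26 by none, and all 140 were detected by all 3 IFNγ arrays. The 26 undetected probes went from a median signal of 95.4 (70.1 to 119.6) to 305.1 (184.5 to 1825), with a median log2 change of 1.66. Their median log2 change was 1.78 in siSUZ12, 0.54 in siCtrl + siBRM and 0.37 in siCtrl cells. In siCtrl + siBRM cells 11 of the 26 were still detected by no array after IFNγ, and in siSUZ12 cells 0 were. The response was higher than in siCtrl + siBRM cells at 17 of the 26 and lower at 0, against 0.0974% and 0.0191% of all probes. The 106 detected probes went from a median signal of 354.5 to 1262 and had medians of 1.45, 1.43, 1.19 and 1.004 in the same order of backgrounds, with 15 higher and 2 lower than in siCtrl + siBRM cells. Both sets come from the 140, chosen for rising in siSUZ12 + siBRM cells, which favours that background in these medians and counts. The split was made on untreated arrays of the same cells, and whether the 26 and the 106 probes differ in their dependence on siSUZ12 was not tested. Over the whole array, 98 of the 29574 probes undetected without IFNγ were detected by all 3 IFNγ arrays, and 61 of 15024 went the other way. Since no background was taken off, the folds of dim probes come out too small.

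**Figure D4:**
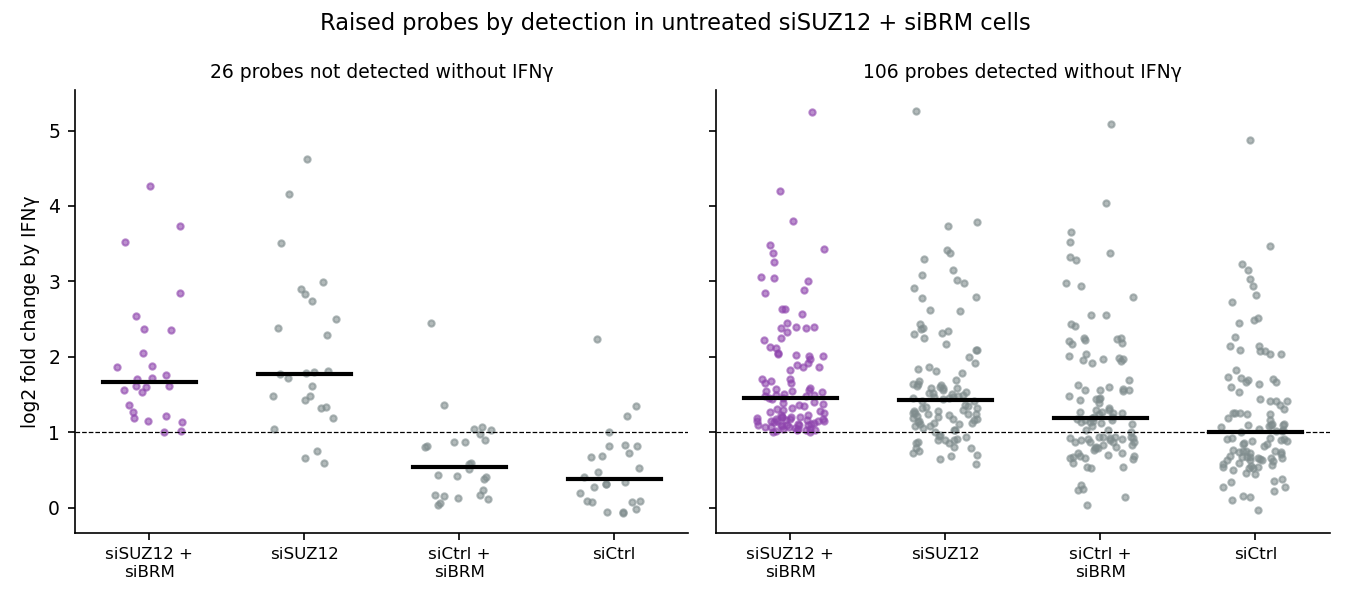
Log2 fold change by IFNγ of raised probes that no untreated siSUZ12 + siBRM array detected (left, 26 probes) or that all 3 detected (right, 106 probes), in the 4 backgrounds; points are probes, bars are medians and the dashed line marks 2-fold. The medians of the 26 probes fall from 1.66 and 1.78 with siSUZ12 to 0.54 and 0.37 without it, and those of the 106 probes lie between 1.45 and 1.004. All were chosen on siSUZ12 + siBRM arrays, which favours that background.

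The fifth strongest probe showed this pattern in full. Its signal was 82.8, 101.7 and 89.6 without IFNγ and 1181, 1189 and 1274 with it in siSUZ12 + siBRM cells, a log2 change of 3.74 (SE within the 0.07 to 0.11 of the 140 probes). In siCtrl + siBRM cells it was 81.4, 83.3 and 72.0 without and 94.1, 80.5 and 91.1 with IFNγ, undetected throughout. The difference was 3.57 (limma adjusted p = 1.3e-20).

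Signal levels were also set side by side between backgrounds. The 140 probes had a median log2 signal 0.17 higher in untreated siSUZ12 + siBRM than in untreated siCtrl + siBRM cells, and 0.46 higher after IFNγ. The same values against siCtrl cells were 0.15 and 0.70, and against siSUZ12 cells 0.05 and 0.10. Over all probes these medians lay between -0.01 and 0.04. The 140 were chosen for their change in siSUZ12 + siBRM cells, which favours a larger gap after IFNγ than before it, and the difference between the gaps was not tested.

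The 129th probe differed in the opposite direction. Its signal in siSUZ12 + siBRM cells was 1214, 1127 and 1156 without IFNγ and 2447, 2397 and 2360 with it (log2 change 1.04). In siCtrl cells it was 337.2, 382.0 and 361.9 without and 2122, 2042 and 1885 with IFNγ (2.48). Levels after IFNγ were thus close, and the untreated level was higher in the double knockdown, where the response was smaller by a log2 difference of -1.44 (limma adjusted p = 2.35e-11). In siSUZ12 cells its log2 change was 1.44 and in siCtrl + siBRM cells 2.21, and the difference from the latter was -1.16 (5.92e-09).

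Decreases were shallow. On signals without background subtraction no probe fell 2-fold in siSUZ12 + siBRM cells, against 13 under neqc. At least 1.5-fold falls were seen at 31 probes (0.0656%), with log2 changes of -0.59 to -0.95 and a median of -0.66. All 31 had their IFNγ arrays below their untreated arrays, as did 8.24% of all probes, and their median signal went from 445.1 to 266.5. In the other backgrounds the same probes had medians of -0.34 (siSUZ12), -0.26 (siCtrl + siBRM) and -0.25 (siCtrl). They fell at an adjusted p below 0.05 at 19, 13 and 7 of the 31, against 0.711%, 0.315% and 0.127% of all probes. They fell by 1.5-fold at 6, 4 and 1, against 0.0212%, 0.0106% and 0.00212%. The fall was larger in siSUZ12 + siBRM cells by the test of the difference at 1, 4 and 4 of them. Over all probes the response was lower there at 0.0169%, 0.0191% and 0.0127%. The 31 were chosen on siSUZ12 + siBRM arrays, which favours that background in the medians and in the tested differences. For most of the 31 a difference between backgrounds was not resolved. By sign, 29 fell further in siSUZ12 + siBRM than in siCtrl + siBRM cells, and 30 further than in siCtrl cells. The 4th deepest went the other way, at -0.77 against -1.14 in both siCtrl + siBRM and siCtrl cells. It was the 1 probe lowered ≥ 2-fold in each of those, and neither difference passed the test (limma adjusted p = 0.747 and 0.575).

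The deepest fall was that of ILMN_1791366, from 569.4, 487.9 and 485.8 to 279.0, 265.4 and 255.2 (log2 change -0.95, SE 0.08; limma adjusted p = 8.18e-11). It fell alike in siSUZ12 cells (-0.94) and siCtrl + siBRM cells (-0.96) and by -0.55 in siCtrl cells, a difference that did not pass the test (-0.40, limma adjusted p = 0.292). ILMN_1788131 fell from 1340, 1310 and 1417 to 744.2, 686.6 and 703.5 (-0.93, limma adjusted p = 1.41e-10). Its untreated mean was 1356 ± 55.0 (SD, n = 3) in siSUZ12 + siBRM and 1334 ± 75.9 in siSUZ12 cells, but 374.2 ± 14.7 in siCtrl + siBRM and 225.9 ± 7.77 in siCtrl cells. The fall was larger than in siCtrl cells by a log2 difference of -0.69 (limma adjusted p = 0.000833). No background was subtracted, so the fold at the dimmer siCtrl signal comes out too small. How much of the difference follows from that was not tested. The third deepest went from 1055, 878.9 and 995.0 to 558.1, 515.4 and 493.7 (-0.90), and it was the 1 of the 31 that fell further than in siSUZ12 cells (-0.29, limma adjusted p of the difference = 0.0303). In siCtrl + siBRM cells its log2 change was -0.02. It fell further there too by the test, with a difference of -0.89 (limma adjusted p = 1.03e-05).

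**Figure D5:**
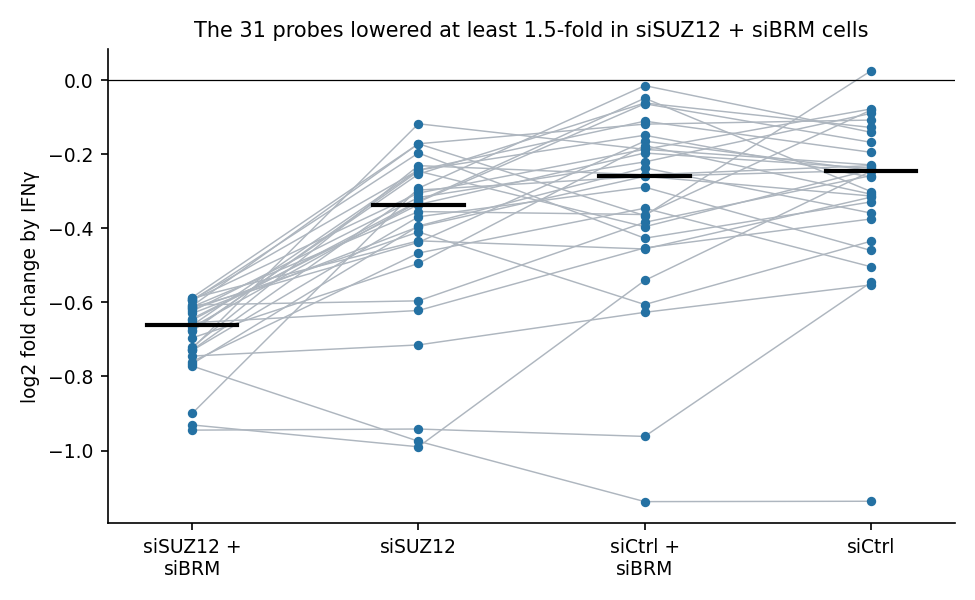
Log2 fold change by IFNγ of the 31 probes lowered at least 1.5-fold in siSUZ12 + siBRM cells, in the 4 backgrounds; a grey line joins the values of 1 probe and bars are medians. The medians are -0.66 in siSUZ12 + siBRM cells, where the probes were chosen, and -0.34, -0.26 and -0.25 in the others.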

How the data were processed

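The authors hybridized cRNA of SW-13 cells to Illumina Human-HT-12 BeadChips and deposited the signal intensity of each probe before normalization, together with a detection p-value. Their processing notes name BeadStudio, whose average normalization the Methods describe. Here a factor per array brought its mean to the average of the 24 means, and log2 was taken; no background was subtracted and no pseudocount was needed, since the lowest deposited intensity was 45.4.

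limma 3.58.1 in R 4.3.3 was fitted once to the 24 arrays with a mean per group (16 residual degrees of freedom, median residual SD 0.11), and p-values were adjusted by Benjamini-Hochberg over 47231 probes. Tests are two-sided. A permutation of 3 arrays against 3 cannot go below p = 0.10. On simulated data 200 of 47231 probes were changed by a log2 of 1. An adjusted p below 0.05 was reached by 100% of responses and 100% of differences from siSUZ12 cells. At a log2 of 0.6 the values were 100% and 73.5%. Among unchanged probes there were 19 and 17 false calls, and 13 and 11 at a log2 of 0.6. The 2-fold limit was not applied here, and the simulated noise was independent between probes and arrays, so the recovery of called probes was not measured. The members, sets and rules were chosen with earlier results of these data known. The rule for printed IDs was the 2 largest rises and falls; as no probe fell 2-fold, the falls were taken after values were seen from those past the adjusted p. Others are given by rank and were chosen after their values were seen. Alternatives were other normalizations, filters, thresholds and fits, and left-out arrays. Gene lists, averages over probes of a gene and sequences need gene names and were not used. Plots were made in Python 3.11.15 with matplotlib 3.10.9.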

Additional observations from a re-analysis of the deposited data

Results flagged for a closer look

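Responses differed between backgrounds, by limma's test of the difference with adjustment over all probes, in the following cases. Of the 140 probes raised in siSUZ12 + siBRM cells, 6 differed from siSUZ12, 36 from siCtrl + siBRM and 75 from siCtrl cells. Of the 31 probes lowered 1.5-fold, 1 differed from siSUZ12, 4 from siCtrl + siBRM and 4 from siCtrl cells. Among the probes printed by ID, the response of ILMN_3239965 was larger by 4.23 on the log2 scale than in siCtrl + siBRM and by 4.28 than in siCtrl cells, and the fall of ILMN_1788131 differed by -0.69 from that in siCtrl cells. The siCtrl signal of ILMN_1788131 was dimmer, and without background subtraction folds of dim probes come out too small. Groups of 3 arrays were not tested for outlying arrays.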

How the results depend on the processing

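The count of 140 raised probes kept within 1.5 times under quantile normalization, the floor of 64, the detection filter, a fit of the compared groups alone, the trend and robust setting, the replicate block and a 2-fold change alone; 139 of the 140 were also raised under neqc, which subtracts background. With neqc, 223 probes were raised and 13 lowered 2-fold, and the share of all probes lowered 1.5-fold was 0.265% in place of 0.0656%. At 1.5-fold 275 were raised and 31 lowered, and at the adjusted p alone 679 and 432. Leaving out arrays gave 134 to 146 raised, 0 lowered 2-fold and a share of 0.0466% to 0.072% lowered 1.5-fold.

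The numbers of differing probes moved more. Against siSUZ12 cells 13 probes differed in all, 4 in a fit of the compared groups alone, 1 at 2-fold and 1 to 9 with arrays left out; of the 140, 6 differed, then 3, 1 and 1 to 5. Leaving out a single siSUZ12 + siBRM array gave 6 to 9 differing probes in all. Against siCtrl + siBRM cells 55 differed, with 91 under the detection filter, 95 with trend and robust, 19 at 2-fold and 28 to 50 with arrays left out. Against siCtrl cells 108 differed, with 179 under the filter, 29 at 2-fold and 54 to 103 with arrays left out. Of the raised probes, 34 were higher than in siCtrl + siBRM cells, with 18 at 2-fold and 21 to 33 with arrays left out. Against siCtrl cells 74 were higher, with 26 at 2-fold and 41 to 71 with arrays left out. The lowest value of each of these 6 ranges came without replicate 2 of every group, which also leaves 2 arrays per group; the cause was not tested.

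Same-numbered untreated and IFNγ arrays of siSUZ12 + siBRM cells deviated from their group means with correlations of 0.077, 0.026 and -0.022, so the numbers were not taken to pair the arrays. The fit with the replicate block gave 140 raised and 0 lowered probes, and 12, 56 and 117 differing probes. The share of higher probes among those at an adjusted p below 0.05 was 61.1%, and 50.6% under the detection filter and 70.8% in a fit of the compared groups alone. The 4 printed probes kept their direction and an adjusted p below 0.05 under all 16 alternatives run for them. Log2 changes under neqc were 5.56, 5.98, -1.21 and -1.02 for ILMN_1708375, ILMN_3239965, ILMN_1791366 and ILMN_1788131. Both falls thus passed 2-fold under neqc, which they did not in the main fit. The counts of 1.5-fold falls and of differing raised probes were added after the data were seen. The median over a gene's probes was not run. With 3 arrays per group and no gene names, differences of less than about 1.5-fold were often not resolved.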
